A study of Homo sapiens with 6 samples.

Results

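The Santa Cruz antibody against BRACHYURY (BRA) gave 5443 peaks in H9 cells, an established human embryonic stem cell line, and 2161 of them overlapped no peak obtained with the R&D Systems antibody. These 2161 regions were the Santa Cruz peaks that shared not a single base pair with any R&D Systems peak of either medium. Of them, 1578 came from FLyA medium and 583 from FLyB medium. They were chosen by position in these same lists, so being unmatched is their definition and no result. The differentiation media shared FGF2 (20 ng/ml) and LY294002, a PI3 kinase inhibitor (10 μM), and cells stayed in them for 36 h. FLyA added 100 ng/ml activin A and gave endoderm progenitors, whereas FLyB added 10 ng/ml BMP4 and gave mesoderm progenitors. Chromatin was immunoprecipitated in 1 library per medium and antibody, which gave 4 peak lists with 54994 peaks in all. Input DNA, sequenced in 2 further libraries, was not analysed here.

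BRA is a T-box transcription factor that binds DNA through its T-domain, and it is expressed in the primitive streak, from which mesoderm and endoderm arise. Activin A acts through SMAD2/3 and BMP4 through SMAD1, and BRA is expressed under either signal. Its level differs, however. The study describes FLyA cells as mostly low in BRA and high in EOMES, another T-box factor, and FLyB cells as mostly the reverse. The part of BRA level in the differences between the media was not tested. In ChIP-seq, a peak is a place where sequenced fragments pile up after immunoprecipitation. Antibodies against the same factor may recognise different parts of it and differ in how much chromatin they recover.

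Every peak in the lists was 400 bp wide and came as a position alone, without height, fold enrichment or p-value. The number of reads behind a peak is therefore unknown. Per the study, BRA binding correlated highly between the antibodies in each medium. It also states that the Santa Cruz libraries were noisier and held fewer unique reads than those of R&D Systems. The part of noise and read number in which peaks are unmatched was not tested. With 1 library per medium and antibody no test between the media was possible. Shares are given with exact (Clopper-Pearson) 95% intervals, which cover counting error only and treat neighbouring peaks as independent. Positions follow hg19, the build in the submitters' processing notes, and are counted from 1. No genome or annotation of that build was used here, so no gene was assigned to a peak and no sequence is shown.

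The regions made up a much larger part of the FLyA list than of the FLyB list. In FLyA they were 1578 of 2436 Santa Cruz peaks (64.8%, 62.8 to 66.7%), and in FLyB 583 of 3007 (19.4%, 18.0 to 20.8%). The choice of regions fixes these shares, so they describe the set and support nothing about it. Of the 858 FLyA peaks left out, 244 lay on an R&D Systems peak of FLyA only, 81 on one of FLyB only and 533 on peaks of both media. Of the 2424 FLyB peaks left out, 1129 lay on an R&D Systems peak of FLyB only, 47 on one of FLyA only and 1248 on peaks of both media. Seen from the other antibody, 92.8% of the R&D Systems FLyA peaks and 88.4% of the R&D Systems FLyB peaks overlapped no Santa Cruz peak.

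Few regions sat at the margin of the rule. The nearest FLyA region, chr4:57125843-57126242, lay 4 bp from an R&D Systems peak, and the nearest FLyB region, chr13:30509927-30510326, lay 2 bp away. Just inside the rule, the smallest overlap of a Santa Cruz peak with an R&D Systems peak was 6 bp in FLyA, at chr1:165222708-165223107, and 7 bp in FLyB, at chr10:66267410-66267809. Gaps of at most 100 bp were found for 9 FLyA and 26 FLyB regions. Overlaps of at most 100 bp were found for 23 FLyA and 21 FLyB peaks, against a median overlap of 368 bp in FLyA and 375 bp in FLyB.

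The gap to the nearest R&D Systems peak is what the rule used, so it is given as a description. A gap of at most 500 bp separated 52 FLyB regions (8.92%, 6.73 to 11.5%) and 41 FLyA regions (2.60%, 1.87 to 3.51%) from the nearest R&D Systems peak of either medium. Within 10 kb these were 206 in FLyB (35.3%, 31.5 to 39.4%) and 422 in FLyA (26.7%, 24.6 to 29.0%). As a share of all Santa Cruz peaks of the medium, the regions within 500 bp were 1.73% in FLyB and 1.68% in FLyA, and those within 10 kb were 6.85% in FLyB and 17.3% in FLyA, so the order of the media depends on the denominator. Within 50 kb were 69.3% of FLyB and 68.3% of FLyA regions, and within 100 kb 88.7% of FLyB and 85.5% of FLyA regions. The median gap was 21.7 kb in FLyB and 27.8 kb in FLyA, and the 10% of regions closest to a peak lay within 0.651 kb in FLyB and 2.78 kb in FLyA. Only 2 regions in each medium lay more than 1 Mb from every R&D Systems peak.

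**Figure D1:**
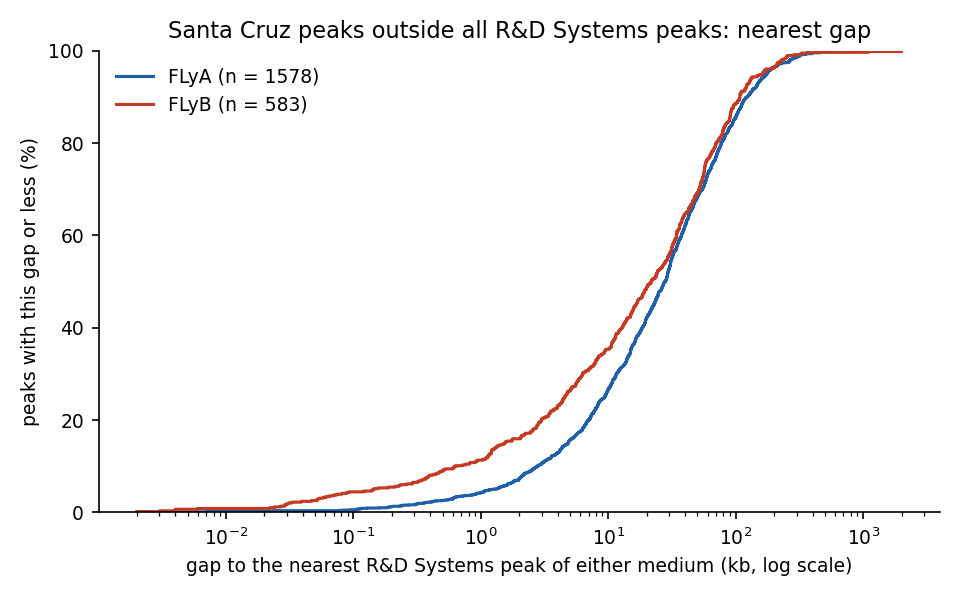
Cumulative share of the Santa Cruz regions outside all R&D Systems peaks (y axis, %) against the gap to the nearest R&D Systems peak of either medium (x axis, kb, log scale), for FLyA (blue, n = 1578) and FLyB (red, n = 583). The FLyB curve lies above the FLyA curve at short gaps, with 8.92% against 2.60% at 500 bp. The curves come close near 50 kb, with 69.3% against 68.3%, and stand at 88.7% against 85.5% at 100 kb.

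The short gaps in FLyB were mostly to R&D Systems peaks of the same medium. Of the 52 FLyB regions within 500 bp, 28 had an R&D Systems peak of FLyB only, 6 of FLyA only and 18 of both. Of the 41 FLyA regions within 500 bp, 16 had an R&D Systems peak of FLyA only, 15 of FLyB only and 10 of both. At 10 kb the lean towards the own medium was smaller in FLyB, with 61 regions near FLyB peaks only and 54 near FLyA peaks only. In FLyA it was 158 near FLyA peaks only and 112 near FLyB peaks only, where the R&D Systems FLyA list is also the longer one, with 25864 against 23687 peaks.

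Few regions of 1 medium overlapped a Santa Cruz peak of the other. The rule itself lowers this count, because a region may touch no R&D Systems peak of the other medium, and most Santa Cruz FLyB peaks lie on one. The values are therefore a description, also beside those of other peaks. Of the FLyA regions, 7 overlapped a Santa Cruz FLyB peak (0.444%, 0.179 to 0.912%), while 10.1% of all Santa Cruz FLyA peaks did. Of the FLyB regions, 9 overlapped a Santa Cruz FLyA peak (1.54%, 0.708 to 2.91%), while 8.28% of all Santa Cruz FLyB peaks did. The Santa Cruz peaks on an R&D Systems peak recurred in 240 of 858 cases in FLyA (28.0%, 24.99 to 31.1%) and in 240 of 2424 cases in FLyB (9.90%, 8.74 to 11.2%). For peaks unmatched by the R&D Systems list of their own medium alone, which leaves the other medium's list out of the rule, the recurring share was 1.27% in FLyA and 1.75% in FLyB. In FLyB, the 9 regions included 2 that met a FLyA peak lying itself on an R&D Systems peak, so 7 sites were shared by the regions of both media. Without regions within 5 Mb of the longest peak-free stretch or of the outermost peak of their chromosome, a choice made after seeing the data, the recurring share was 0.0750% in FLyA and 0.628% in FLyB.

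The recurrence rose with the gap allowed. A Santa Cruz peak of the other medium lay within 10 kb of 66 FLyA regions (4.18%, 3.25 to 5.29%, against 14.9% of all Santa Cruz FLyA peaks) and of 39 FLyB regions (6.69%, 4.80 to 9.03%, against 12.4% of all Santa Cruz FLyB peaks). Within 100 kb it was 21.0% of FLyA and 20.2% of FLyB regions, compared with 50.1% and 29.9% of the Santa Cruz peaks on an R&D Systems peak. The FLyB list searched from FLyA holds 3007 peaks and the FLyA list searched from FLyB holds 2436, which favours FLyA regions in this count.

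**Figure D2:**
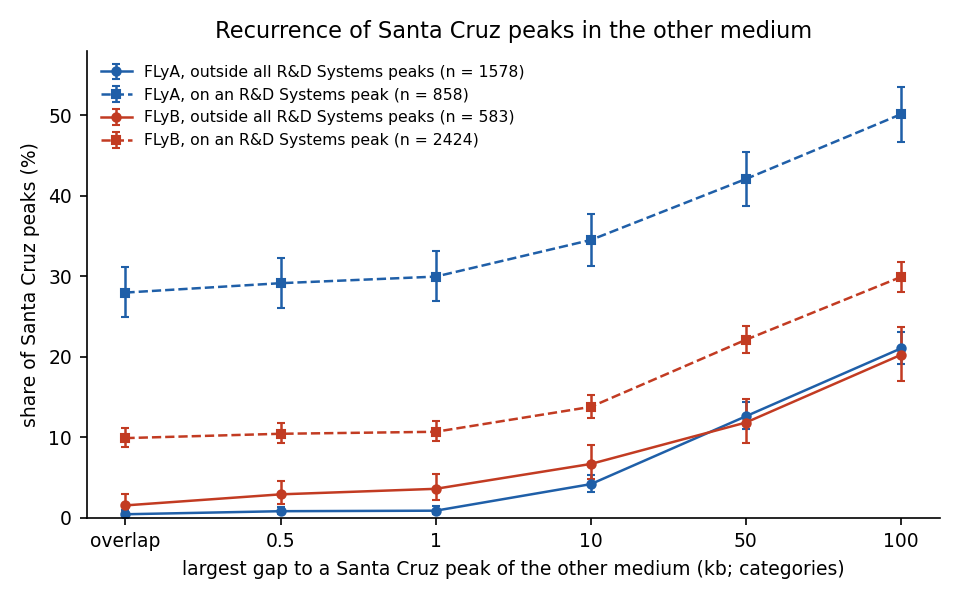
Share of Santa Cruz peaks (y axis, %) with a Santa Cruz peak of the other medium at or below the gap on the x axis (categories, kb), for FLyA (blue) and FLyB (red), with exact 95% intervals. Circles with solid lines are the regions outside all R&D Systems peaks, and squares with dashed lines are the Santa Cruz peaks on an R&D Systems peak. At overlap the regions stand at 0.444% and 1.54% and the other Santa Cruz peaks at 28.0% and 9.90%, a gap to which the rule contributes.

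The 7 shared sites are given one by one because they are all that the regions of both media share. On chromosome 19 the same interval, chr19:27733684-27734083, was listed in both media, and it lay 935 bp from the nearest R&D Systems FLyA peak. On chromosome Y, the FLyA region chrY:13458247-13458646 and its FLyB partner were 3 bp out of register, and the nearest R&D Systems peak was 320207 bp away. On chromosome 3, the FLyA region chr3:197900189-197900588 was the last peak of the chromosome in all 4 lists, and its FLyB partner started 70 bp before it. On chromosome 4, the FLyA region chr4:9861-10260 was the first peak of the chromosome in all 4 lists, with its FLyB partner at chr4:9963-10362. These 4 sites lay within 1 Mb of an outermost peak or of the longest stretch of their chromosome without any peak, as did 4.37% of all FLyA and 6.35% of all FLyB regions. The sites on chromosomes 3 and 4 do so by definition, since their FLyA regions are the outermost peaks. On chromosome Y every listed peak lies within 1 Mb of the stretch or of an outermost peak, so its place there is fixed too.

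The other 3 sites were chr16:33957071-33957470, chr2:89853039-89853438 and chr6:163682909-163683308 in FLyA. Those on chromosomes 16 and 2 lay 1.32 and 2.47 Mb from the longest peak-free stretch, and only the site on chromosome 6 lay more than 5 Mb from both such a stretch and an outermost peak, while 15.5% of all FLyA and 18.0% of all FLyB regions lay within 5 Mb of either. The FLyA region on chromosome 16 had R&D Systems peaks 271 bp away in FLyA and 284 bp away in FLyB. Across the 7 sites the midpoints of the partners were 0 to 246 bp apart, with a median of 102 bp. Partners on R&D Systems peaks were closer, with a median of 28 bp over 240 pairs, of which 62.9% lay within 50 bp, compared with 2 of the 7 sites.

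The very start of the chromosome sequences, where telomere repeats lie, held Santa Cruz peaks only. With no R&D Systems peak there, these peaks are regions by the rule. The first 20 kb of a chromosome held 7 peaks, 5 from FLyA and 2 from FLyB, and none from either R&D Systems list. In FLyA they were chr1:10056-10455, chr4:9861-10260, chr7:9978-10377, chr9:10128-10527 and chr18:10412-10811. In FLyB they were chr4:9963-10362 and chr18:9897-10296. All 7 started between positions 9861 and 10412, on 5 different chromosomes. On chromosome 18 the FLyA and FLyB peaks lay next to each other without overlapping.

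Some regions were the outermost peaks of their chromosome. Each of the 24 chromosomes has a first and a last peak over the 4 lists, which makes 48 positions, and FLyA regions took 11 of them and FLyB regions 2. The R&D Systems lists, with 25864 and 23687 peaks, took 13 and 20, and the other Santa Cruz peaks took 1 in each medium. The rule bears on this count, since a Santa Cruz peak on an R&D Systems peak can be outermost only where it reaches past that peak. Within 1 Mb of the outermost peak lay 2.47% of FLyA regions (1.76 to 3.36%, against 2.34% of all Santa Cruz FLyA peaks) and 2.23% of FLyB regions (1.19 to 3.78%, against 1.90% of all Santa Cruz FLyB peaks). In the R&D Systems lists it was 1.65% (1.495 to 1.81%) in FLyA and 1.93% (1.75 to 2.11%) in FLyB. An outermost peak counts as near itself, so the 11 FLyA and 2 FLyB outermost regions are in these shares by definition. The same holds for the 13 and 20 outermost peaks of the R&D Systems lists, so the shares are a description.

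Some regions lay near the longest peak-free stretch, which is the longest interval of a chromosome without a peak in any of the 4 lists. In many human chromosomes it takes in the centromere, whose satellite repeats are poorly represented in the assembly. Within 1 Mb of it lay 33 FLyA regions (2.09%, 1.44 to 2.92%), against 4.68% of all Santa Cruz FLyA peaks and 9.44% (7.57 to 11.6%) of those on an R&D Systems peak. Within the same distance lay 27 FLyB regions (4.63%, 3.07 to 6.67%), against 4.02% of all Santa Cruz FLyB peaks and 3.88% (3.14 to 4.72%) of those on an R&D Systems peak. Peaks that border a stretch help to define it and count as near it, among them 7 FLyA regions and 1 FLyB region. Of the Santa Cruz peaks on an R&D Systems peak, 3 in FLyA and 5 in FLyB border one. The difference between the media was not tested. The R&D Systems lists had 1.32% (1.19 to 1.47%) and 1.26% (1.12 to 1.41%) of their peaks there. Within 5 Mb of the stretch lay 126 FLyA regions (7.98%, against 10.6% of all Santa Cruz FLyA peaks) and 65 FLyB regions (11.1%, against 9.61% of all Santa Cruz FLyB peaks). Within 5 Mb of the outermost peak lay 126 FLyA regions (7.98%, against 7.96%) and 45 FLyB regions (7.72%, against 8.28%). The repeat content of the regions was not analysed here, and its part in these shares was not tested.

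**Figure D3:**
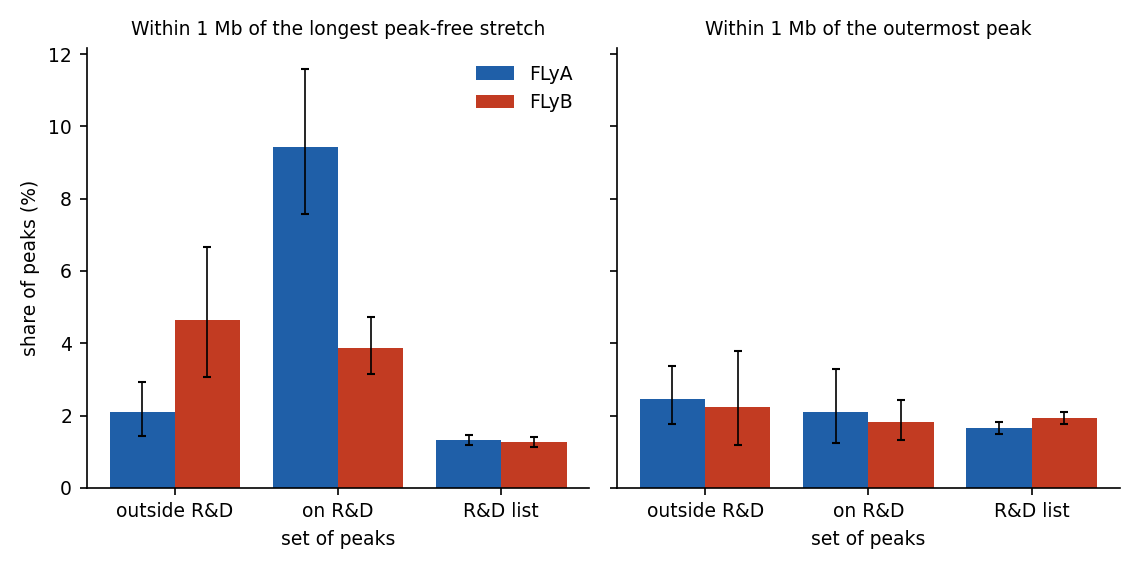
Share of peaks (y axis, %) within 1 Mb of the longest peak-free stretch (left) and of the outermost peak of the chromosome (right), for FLyA (blue) and FLyB (red), with exact 95% intervals. The sets are the Santa Cruz regions outside all R&D Systems peaks, the Santa Cruz peaks on an R&D Systems peak and the whole R&D Systems lists. On the left, 2.09% of FLyA and 4.63% of FLyB regions stand beside 9.44% and 3.88% of the Santa Cruz peaks on an R&D Systems peak. Peaks that border a stretch, or are outermost themselves, are counted in these shares by definition.

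Within a medium, few regions had another region nearby. Another region of the same medium lay within 10 kb of 53 FLyA regions (3.36%, 2.53 to 4.37%, against 6.69% of all Santa Cruz FLyA peaks meeting another Santa Cruz peak) and of 11 FLyB regions (1.89%, 0.946 to 3.35%, against 13.1% of all Santa Cruz FLyB peaks). The same count gave 8.39% (6.62 to 10.5%) of the FLyA and 12.8% (11.5 to 14.2%) of the FLyB Santa Cruz peaks on an R&D Systems peak. Counting any Santa Cruz peak of the same medium as a neighbour, the share was 72 of 1578 FLyA regions (4.56%, 3.59 to 5.71%) and 50 of 583 FLyB regions (8.58%, 6.43 to 11.2%), with 34 FLyA and 46 FLyB regions near a Santa Cruz peak on an R&D Systems peak. By the same count it was 10.6% (8.63 to 12.9%) in FLyA and 14.2% (12.8 to 15.6%) in FLyB for the Santa Cruz peaks on an R&D Systems peak. Shares within a set rise with the number of its peaks, and the sets hold 1578, 583, 858 and 2424 peaks. Leaving out the 10 windows of 1 Mb with the most regions, which removes neighbours by construction, gave 2.55% in FLyA and 0.361% in FLyB.

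To set sets of unequal size side by side, neighbours were counted per peak and per 1000 other peaks of the set. Within 10 kb this was 0.0241 in FLyA and 0.0413 in FLyB for the regions, 0.215 and 0.0736 for the Santa Cruz peaks on an R&D Systems peak, and 0.0185 and 0.0283 for the R&D Systems lists. The rule contributes to these values, because it parts groups of Santa Cruz peaks by their overlap with R&D Systems peaks, and the 58 FLyA and 79 FLyB pairs that join a region to another Santa Cruz peak are not counted. The FLyB value rests on 7 pairs, and the order of the media turned without regions within 5 Mb of the longest peak-free stretch or the outermost peak, with 0.0214 in FLyA and 0.00877 in FLyB. It also turned without the 10 fullest windows, with 0.0179 in FLyA and 0.00653 in FLyB. These windows were chosen on the same regions, so leaving them out removes neighbours by construction. Both of these FLyB values rest on fewer pairs than the full set, so neither turn is more than a description. At 1 Mb the regions had 0.845 such neighbours in FLyA, where the R&D Systems list had 0.847, and 0.778 in FLyB, where it had 1.0002.

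**Figure D4:**
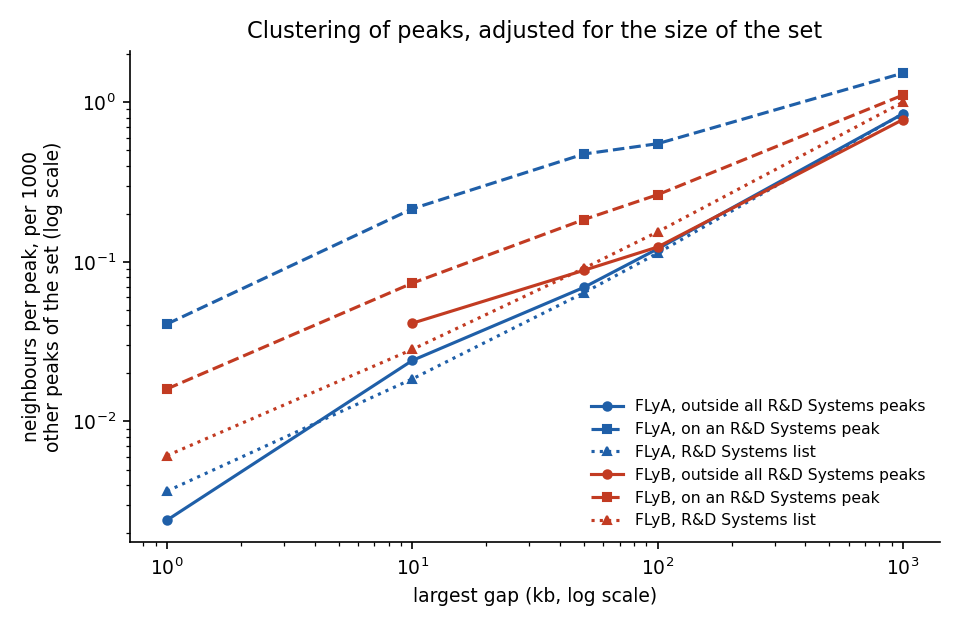
Neighbours per peak and per 1000 other peaks of the same set (y axis, log scale) within the gap on the x axis (kb, log scale), for FLyA (blue) and FLyB (red). Circles with solid lines are the regions outside all R&D Systems peaks, squares with dashed lines the Santa Cruz peaks on an R&D Systems peak, and triangles with dotted lines the R&D Systems lists. The FLyB regions had no neighbour within 1 kb, so that point is missing, and at 10 kb the regions stand at 0.0241 and 0.0413, below the squares of the same colour at 0.215 and 0.0736.

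Runs of regions, each within 10 kb of the next, were short. FLyA had 25 runs, of which 23 were pairs, 1 held 3 regions and 1 held 4. The run of 4 covered 13.6 kb of chromosome 2, with regions at chr2:133011842-133012241, chr2:133012655-133013054, chr2:133019928-133020327 and chr2:133025056-133025455. No R&D Systems peak lay inside it, and the nearest was 110 bp from its last region. The run of 3 lay on chromosome 12 from 34841422 to 34851866 and ended at the longest peak-free stretch, whose border its last region sets. Of the pairs, 4 lay between 142535744 and 145023836 on chromosome 1. The first of them borders the 21.1 Mb peak-free stretch of that chromosome and likewise sets its border.

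FLyB had 5 runs, with 4 pairs and 1 run of 3. The run of 3 lay on chromosome 19 from 27733684 to 27740111, began with the interval shared by both media, and enclosed 3 FLyA and 5 FLyB peaks of the R&D Systems lists. Pairs lay at chr16:33952976-33957344, chr17:25938904-25944473, chr17:49084489-49089408 and chr18:18515957-18518345. Of the 11 FLyB regions in runs, 9 lay within 5 Mb of the longest peak-free stretch or an outermost peak (81.8%), compared with 96 of the 572 that were in no run (16.8%). In FLyA these were 19 of 53 (35.8%) and 225 of 1525 (14.8%). Of all Santa Cruz peaks, in runs or not, 17.9% in FLyA and 17.3% in FLyB lay within this distance. The distance was chosen after seeing the data, and peaks of a run are not independent of each other.

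Counted in windows of 1 Mb, the regions spread widely. FLyA regions occupied 1155 of the 2844 windows that hold any peak, and FLyB regions 513. In 224 windows both media had regions, which is 19.4% of the FLyA and 43.7% of the FLyB windows, beside the 18.0% and 40.6% of all windows that hold regions of FLyB and of FLyA. The fullest FLyA window, chr17:78000001-79000000, held 7 FLyA regions and 0 FLyB regions, with 1 FLyA peak on an R&D Systems peak. The next, chr17:11000001-12000000, held 6 and 0, with no FLyA peak on an R&D Systems peak. Then came chr2:133000001-134000000 with 5 and 1, chr10:42000001-43000000 with 5 and 2, and chr1:85000001-86000000 with 4 and 0, which was 1 of 16 windows with 4 FLyA regions. Of the 20 windows with 4 or more FLyA regions, 8 were on chromosome 17, which has 80 windows.

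The chromosome 10 window stood apart in its makeup. There the other Santa Cruz peaks outnumbered the regions, with 15 FLyA and 14 FLyB peaks on R&D Systems peaks, whereas the 2 fullest windows of chromosome 17 held 1 and 0 in FLyA and 0 and 1 in FLyB. In FLyB no window held more than 3 regions, and 9 windows held 3. Of these 9, the first 5 in chromosome order were chr4:190000001-191000000, chr8:94000001-95000000, chr16:33000001-34000000, chr17:25000001-26000000 and chr17:47000001-48000000, where FLyA had 1, 0, 2, 1 and 1 regions. With borders shifted by 500 kb the fullest window held 6 regions in FLyA and 4 in FLyB.

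By chromosome, the regions of both media were densest, among the autosomes, on chromosome 17. Chromosome 17 held 131 FLyA regions (8.30%, 6.99 to 9.77%, against 8.42% of all Santa Cruz FLyA peaks) and 34 FLyB regions (5.83%, 4.07 to 8.05%, against 6.65% of all Santa Cruz FLyB peaks). Measured to its last peak, the chromosome makes up 2.66% of the length, so the regions stood at 3.12 times the share of length in FLyA and 2.19 times in FLyB. Over the chromosome's share of the R&D Systems peaks of the same medium they stood at 1.54 times in FLyA and 0.833 times in FLyB. The Santa Cruz peaks on an R&D Systems peak stood at 3.24 and 2.57 times the share of length, and the share of regions among the Santa Cruz peaks of this chromosome was 63.9% in FLyA and 17% in FLyB, near that of the whole lists. Among regions more than 10 kb from any R&D Systems peak, the chromosome 17 share was 6.23% in FLyA and 5.84% in FLyB.

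Chromosome 22 held 6 FLyA regions (0.380%, 0.140 to 0.826%) and 5 FLyB regions (0.858%, 0.279 to 1.99%), which is 0.227 and 0.511 times its share of length, the lowest among the autosomes. This length counts 17.3 Mb before the first peak of any list. Measured from first to last peak, chromosome 22 stood at 0.331 times in FLyA, still the lowest, and at 0.748 times in FLyB, where chromosomes 19, 13, 20 and 7 were lower, from 0.601 to 0.730 times. On chromosome 22 the Santa Cruz peaks on an R&D Systems peak stood at 0.833 and 0.934 times the share of length to the last peak, with intervals that overlapped those of the regions. By length to the last peak, the next lowest autosomes in FLyA were 19, at 0.686 times, and 18, at 0.692 times, and the next highest were 10, at 1.26 times, and 4, at 1.14 times. The place of chromosome 4 depends on this measure. From first to last peak it stood at 1.103 times in FLyA, below chromosomes 21, at 1.121 times, and 14, at 1.115 times. By length to the last peak again, the values for FLyB follow. In FLyB the next lowest were 13, at 0.590 times, and 19, at 0.619 times, and the next highest were 18, at 1.41 times, and 10, at 1.24 times. Chromosome 18 thus was among the 3 sparsest autosomes in FLyA and among the 3 densest in FLyB, with 28 FLyA regions (1.77%, 1.18 to 2.55%) and 21 FLyB regions (3.60%, 2.24 to 5.45%). On none of the 24 chromosomes were the intervals of the media apart, and on none did the interval of the regions stand apart from that of the Santa Cruz peaks on an R&D Systems peak of the same medium.

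**Figure D5:**
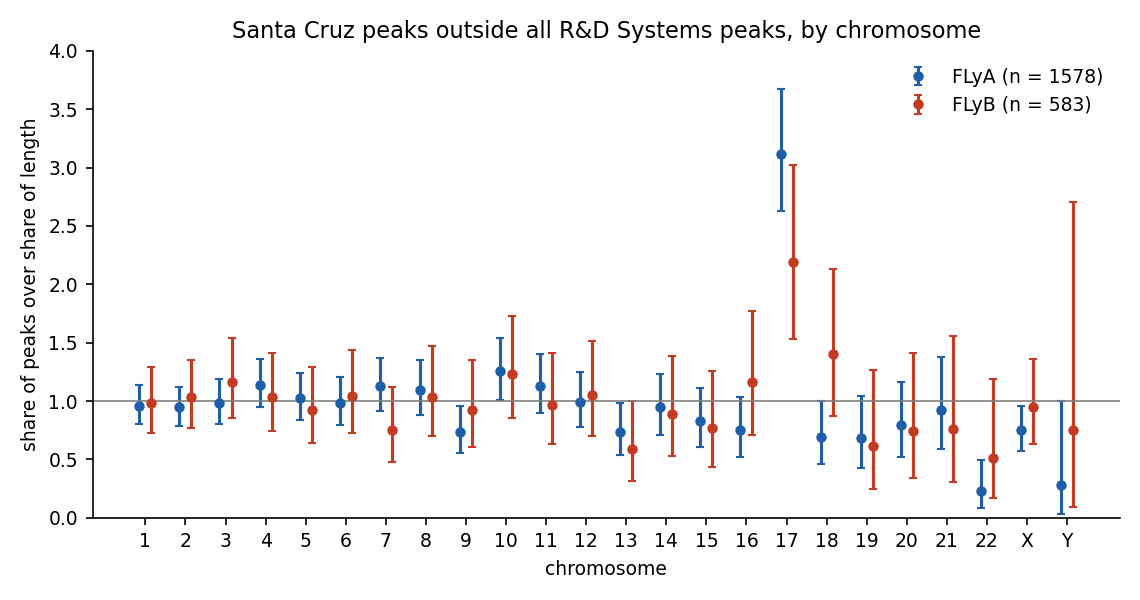
Share of the Santa Cruz regions outside all R&D Systems peaks on each chromosome, divided by the chromosome's share of length to its last peak (y axis), for FLyA (blue, n = 1578) and FLyB (red, n = 583), with exact 95% intervals; the grey line marks 1. Chromosome 17 stands highest at 3.12 and 2.19, chromosome 22 is the lowest autosome at 0.227 and 0.511, with the 17.3 Mb before its first peak counted, and the intervals of the media overlap on every chromosome.

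The part of the Santa Cruz list that these regions make up, which the rule sets, varied between autosomes. In FLyA it ran from 33.3% on chromosome 22 (13.3 to 59.0%, 6 of 18 peaks) to 74.3% on chromosome 14, with a median of 64.7%. In FLyB it ran from 10.98% on chromosome 20 (5.14 to 19.8%, 9 of 82 peaks) to 27.7% on chromosome 4 (20.4 to 36.0%, 38 of 137 peaks), with a median of 18.9%.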

How the data were processed

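BRA ChIP-seq was analysed in 4 libraries. Sequencing was done on a Genome Analyzer II. Bowtie 0.12.7 and hg19 are named in the submitters' processing notes. The authors called peaks with MACS and deposited each list as positions without scores. A MACS threshold of 1e-12 stands in the header of each Santa Cruz list. None stands in those of R&D Systems, and its part in which peaks are unmatched was not tested. The study normalised fold enrichment to input, but the control behind each list and the handling of duplicates are not given in the sources used here, nor are read totals.

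Python 3.11.15 with SciPy 1.17.1 and NumPy 2.4.6 was used to compare peaks. Counts of unmatched peaks were checked with bedtools 2.31.1, and functions were tested on simulated data. Figures were drawn with matplotlib 3.10.9. A gap is the number of bases between peak edges. An overlap needed 1 bp. Windows were 1 Mb, and neighbours lay within 10 kb. Named were the 5 fullest windows and the longest runs per medium, the shared sites, and the 3 densest and 3 sparsest autosomes.

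The regions and measures were chosen with earlier results of these data known. Peak-free stretches, outermost peaks, the first 20 kb, neighbours per 1000, first-to-last-peak lengths and the share of each autosome's peaks were added after seeing the lists. The planned gene, promoter, motif, GC and repeat results need an hg19 genome or annotation and were not run.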

Additional observations from a re-analysis of the deposited data

How the results depend on the processing

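Except where stated, the shares and ratios below lay outside the 95% interval of the value reported above. Requiring 200 bp of overlap gave unmatched shares of 67.6% in FLyA and 21.5% in FLyB and a FLyA recurrence of 0.972%. Also leaving out regions within 500 bp of an R&D Systems peak gave 17.7% unmatched and 0.753% with a neighbour in FLyB. Leaving out those within 10 kb gave 47.5% and 12.5% unmatched and, in FLyA, 1.90% with a neighbour and 6.23% on chromosome 17. Against the R&D Systems list of the own medium alone, 68.1% and 21.0% were unmatched, and the FLyA recurrence was 1.27%. Against that of the other medium alone, 74.8% and 56.9% were unmatched, and 5.90% of FLyB regions had a neighbour.

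Recurrence was 4.18% in FLyA and 6.69% in FLyB at 10 kb, 2.92% in FLyB at 500 bp, and 0.0750% and 0.628% away from stretches and ends. Shares with a neighbour within 1, 50, 100 and 1000 kb were 0.380%, 8.11%, 14.5% and 67.8% in FLyA and 0%, 4.12%, 6.17% and 36.0% in FLyB, by construction. Any Santa Cruz peak of the medium as a neighbour gave 4.56% and 8.58%. Without the 10 fullest windows, chosen on the same regions, the FLyB share was 0.361%. Taken over the share of the other Santa Cruz peaks instead of length, chromosome 17 stood at 0.963 in FLyA and 0.852 in FLyB, and over that of R&D Systems peaks at 1.54 and 0.833. Autosomes alone and merged peaks left the unmatched share, recurrence, clustering and chromosome 17 share within their intervals, as did leaving out chromosome Y or the fullest Santa Cruz window for recurrence. The fullest window is a count without an interval. With borders shifted by 500 kb it went from 7 to 6 regions in FLyA and from 3 to 4 in FLyB. The cause of the shifts was not tested.

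No paired analysis was possible because there is 1 library per medium and antibody. A stricter peak threshold was not run, since the lists hold no score. Unknown depth means that an unmatched peak is not shown to be unbound with the other antibody.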

Other observations

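Across the 22 autosomes, the share of regions over the share of length in FLyA and in FLyB had a Pearson correlation of 0.827 and a Spearman correlation of 0.497. For the Santa Cruz peaks on an R&D Systems peak the Pearson correlation was 0.885. This describes chromosomes, which are not replicates, and both media share the chromosome lengths. Without chromosome 17 the Pearson correlation was 0.466.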
